A study of Mus musculus with 16 samples.

Results

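Classic target genes of the nuclear receptor PPAR alpha were examined in the livers of diabetic mice fed a maple syrup extract. The 8 genes were Vnn1, Pex11a, Fabp1, Aldh3a2, Cyp4a10, Cyp4a14, Pdk4 and Ucp2, taken by name as well-known targets outside the beta-oxidation enzymes. A gene counted as measured where the platform annotation had a probe set naming it and no other gene, and 6 of the 8 did, among 18194 such genes on the array. Where a gene had several such probe sets, the brightest by its mean of the 16 arrays was used and the others served as a check. Cyp4a10 was named only together with Cyp4a31, and no probe set was named for Ucp2 by symbol or synonym, so these genes were not analysed here as members.

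The samples were livers of 16 male KK-Ay mice, a diabetic model with the yellow agouti (Ay) allele, so mice of both diets were of the diabetic strain and no lean strain was compared. In the MSE group 8 mice received a purified diet with 0.1% maple syrup extract, and in the normal group 8 mice received the same diet without it. The diets were pair-fed for 43 days to individually housed mice, and livers were taken at 11 weeks of age after 16 h of fasting. Each array held the liver RNA of 1 mouse.

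PPAR alpha is a receptor for fatty acids and for fibrate drugs. It binds DNA together with RXR at a hexamer that is repeated in the same direction, and in hepatocytes it turns on genes for the uptake, transport and burning of fatty acids. Fasting activates it, and its strongly inducible targets in mouse liver include the Cyp4a genes, Pdk4 and Vnn1.

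The deposited values hardly vary between arrays: across the 16 mice the SD of a probe set had a median of 4.98 millionths of a log2 unit. Differences on such a scale cannot be turned into fold changes of a transcript. Values are therefore given as deviations from the gene's own mean over the 16 mice, in millionths of a log2 unit. Differences between diets (MSE minus normal) are given in SDs within diets, which are called SDs below. The tissue label was checked with hepatocyte markers, and albumin (Alb) stood at 14.3, transthyretin (Ttr) at 13.9 and Cps1 at 12.9 log2 units, with array medians near 6.04.

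Of the 6 measured targets, Fabp1, Vnn1, Cyp4a14 and Pdk4 had higher means on the MSE diet, and Pex11a and Aldh3a2 had lower means. The 4 of 6 higher stand beside 48.3% of all genes. None passed limma's test at an adjusted p under 0.05, and neither did any other gene (0.0% of 18194 genes). With the mice taken as unpaired, 2 of the 6 had an unadjusted p under 0.05, Vnn1 and Fabp1, both higher with MSE. That compares with 6.66% of all genes in either direction, 2.59% higher and 4.07% lower with MSE. The median difference of the 6 was 0.829 SDs, against -0.0227 SDs over all genes. These are whole-liver measurements, in which fewer cells of a type and less RNA per cell cannot be told apart.

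**Figure D1:**
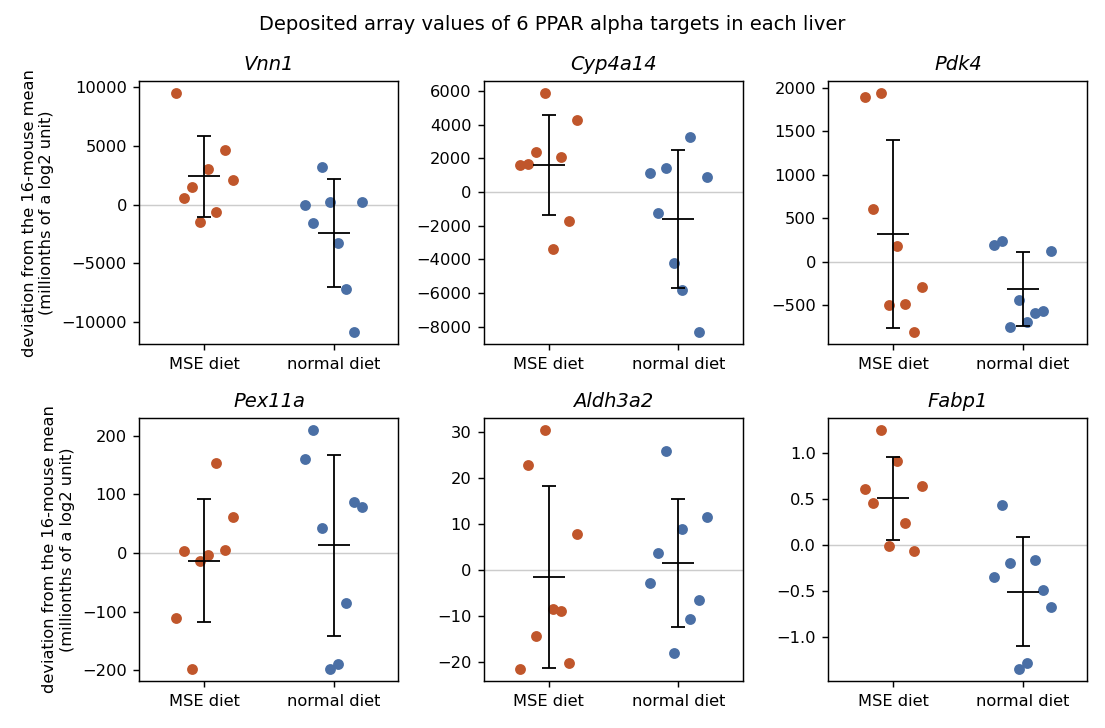
Deviation of each mouse from the gene's mean over 16 mice (vertical axis, millionths of a log2 unit) for the 6 measured targets, MSE mice left and normal-diet mice right in each panel. Points are mice and bars show the mean ± SD (n = 8 each). The diets overlap in every panel, and the vertical scale differs between genes, with SDs over the 16 mice of 0.730 for Fabp1 and 4652 for Vnn1.

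Vnn1 encodes vanin-1, a pantetheinase anchored at the cell surface that releases cysteamine and pantothenic acid. Its 8 MSE mice had a lowest deviation of -1443, a median of 1824 and a highest of 9513 millionths, against a lowest of -10878, a median of -806 and a highest of 3179 in the normal-diet mice. The groups overlapped, with 2 MSE mice (replicates 1 and 7) above every normal-diet mouse and 4 normal-diet mice below every MSE mouse. The means were 2414 ± 3475 with MSE and -2414 ± 4579 on the normal diet (SD, n = 8 each). Vnn1 was 1.19 SDs higher with MSE (95% interval 0.149 to 2.23), and the MSE mouse was the higher one in 52 of 64 pairs of 1 MSE and 1 normal-diet mouse. Limma gave an unadjusted p of 0.0278 and an adjusted p of 0.700, and the exact permutation test over all 12870 regroupings of the mice gave p = 0.0272 (two-sided).

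The second Vnn1 probe set also had higher values with MSE. Its difference was 1.52 SDs, in 56 of 64 pairs, with all 8 MSE mice above the median of the normal-diet mice (limma adjusted p 0.627 over all probe sets, exact permutation p = 0.00622). Over the 16 mice, after removal of the diet means, the probe sets of Vnn1 correlated at r = 0.942 and rho = 0.953. Both had a permutation p of 1e-05, the smallest that 100000 permutations can give, or 1.5e-05 for r and 3e-05 for rho after adjustment over the 3 genes with a pair of probe sets. Without the 2 mice farthest from the median r was 0.896.

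Fabp1, the liver fatty acid-binding protein, carries fatty acids through the hepatocyte cytosol and delivers ligands to PPAR alpha. Its promoter is shown because it holds the closest match to a PPAR alpha response element among the promoters at hand. The 250 bases before its start come from RefSeq (GRCm38.p6, chr6:71199629-71199878, plus strand, C57BL/6J, not KK-Ay), 5′ to 3′, with the match in capitals.
Fabp1: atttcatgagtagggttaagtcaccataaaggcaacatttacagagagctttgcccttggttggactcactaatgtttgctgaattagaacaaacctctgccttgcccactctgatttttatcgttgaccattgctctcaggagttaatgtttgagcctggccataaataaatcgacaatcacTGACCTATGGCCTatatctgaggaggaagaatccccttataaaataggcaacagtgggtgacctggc
The motif searched on both strands was AGGTCA, any 1 base, and AGGTCA again, in windows from 250 bases before to 50 after a start. The Fabp1 match lies 67 to 55 bases before the start, on the opposite strand, and keeps 11 of the 12 fixed letters, as 0.554% of 32851 promoter windows do. Promoters of 3 other measured targets were found. Aldh3a2 kept at most 9 letters (24.6% of windows reach that), Pdk4 8 (79.8%) and Pex11a 7 (99.9%), and promoters of Vnn1 and Cyp4a14 were not analysed here. A match is a description of letters and not a bound site.

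On the array Fabp1 had a mean of 13.9 log2 units on the probe set used, and the highest value of any probe set was 14.6. Its values spanned a minute range. Its MSE mice had a lowest deviation of -0.065, a median of 0.535 and a highest of 1.26 millionths of a log2 unit, against -1.35, -0.415 and 0.435 in the normal-diet mice. Here 7 normal-diet mice lay below every MSE mouse, and 1 normal-diet mouse (replicate 2) lay within the MSE range. Fabp1 was 1.93 SDs higher with MSE (95% interval 0.142 to 3.71), in 61 of 64 pairs. The exact permutation p was 0.00186, while limma, which draws such a small variance towards that of the other genes, gave an unadjusted p of 0.0362 and an adjusted p of 0.716.

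The Fabp1 difference depended on the probe set and on the scaling. The other probe set, at a mean of 10.6 log2 units, had an SD of 58.8 millionths against 0.730. It showed 0.0996 SDs (95% interval -0.937 to 1.14) and 34 of 64 pairs, and the exact permutation p was 0.845. The probe sets of Fabp1 correlated at r = 0.459 within diets (permutation p = 0.0915) and rho = 0.571 (permutation p = 0.0286), adjusted p 0.0915 and 0.0286, and r was 0.552 without the 2 farthest mice. When each array was centred on its median, the difference was 0.462 SDs, beside a median of 0.416 SDs over all genes. The array medians themselves differed by -13.1 millionths (MSE minus normal), beside 1.01 for Fabp1. After quantile normalization no spread was left in the Fabp1 values, and no difference could be given.

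Cyp4a14 is a fatty acid omega-hydroxylase, which oxidizes the far end of the fatty acid chain, and is among the most inducible PPAR alpha targets of mouse liver. Its MSE mice had a lowest deviation of -3404, a median of 1896 and a highest of 5897 millionths, against -8340, -148 and 3258 in the normal-diet mice. MSE replicates 4 and 8 lay above every normal-diet mouse and normal-diet replicates 4, 5 and 7 below every MSE mouse, with the others mixed. The means were 1601 ± 2991 with MSE and -1601 ± 4094 on the normal diet (SD, n = 8 each). The difference of 0.893 SDs (95% interval -0.146 to 1.93; 50 of 64 pairs) did not pass (limma unadjusted p 0.0868, adjusted p 0.799, exact permutation p = 0.0957).

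Aldh3a2, the fatty aldehyde dehydrogenase, acts at a later step of omega-oxidation by turning fatty aldehydes into acids. Its deviations ran from -21.5 to 30.5 with a median of -8.63 millionths in MSE mice, and from -18.0 to 25.9 with a median of 0.464 in normal-diet mice. The MSE range enclosed the normal-diet range, with 2 MSE mice below it and 1 above. The difference was -0.179 SDs (95% interval -1.22 to 0.861, limma adjusted p 0.988, exact permutation p = 0.722), and 39 of 64 pairs had the lower value in the MSE mouse. Its sign turned to 0.288 SDs after centring on array medians and to 0.581 SDs after quantile normalization. The median of all genes after centring was 0.416 SDs, above that of Aldh3a2.

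Pex11a is a peroxisomal membrane protein that elongates peroxisomes before they divide, a step behind the peroxisome proliferation for which PPAR alpha is named. Its deviations ran from -198 to 153 with a median of -0.187 millionths in MSE mice, and from -197 to 210 with a median of 60.3 in normal-diet mice. The diets covered nearly the same range, and the difference was -0.197 SDs (95% interval -1.24 to 0.842, limma adjusted p 0.984, exact permutation p = 0.697). Its second probe set gave -0.205 SDs, and within diets the probe sets correlated at r = 0.948 and rho = 0.882 (permutation p = 1e-05 and 4e-05, adjusted 1.5e-05 and 6e-05; r = 0.929 without the 2 farthest mice). Quantile normalization turned the sign of the difference, to 0.869 SDs, and array weights turned it to 0.0829 SDs.

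Pdk4 phosphorylates and shuts down the pyruvate dehydrogenase complex, sparing glucose while fatty acids are burned. Its mean of 6.25 log2 units lay near the array medians of about 6.04. Its MSE mice had a lowest deviation of -812, a median of -56.6 and a highest of 1939 millionths, against -755, -505 and 239 in the normal-diet mice. MSE replicates 1, 2 and 3 lay above every normal-diet mouse, while the other 5 MSE mice lay among or below them. The SD within MSE mice was 1080, against 421 within normal-diet mice, a ratio of 2.56 that was not tested. The difference was 0.765 SDs (95% interval -0.274 to 1.80; 43 of 64 pairs) and did not pass (limma unadjusted p 0.137, adjusted p 0.847, exact permutation p = 0.165).

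**Figure D2:**
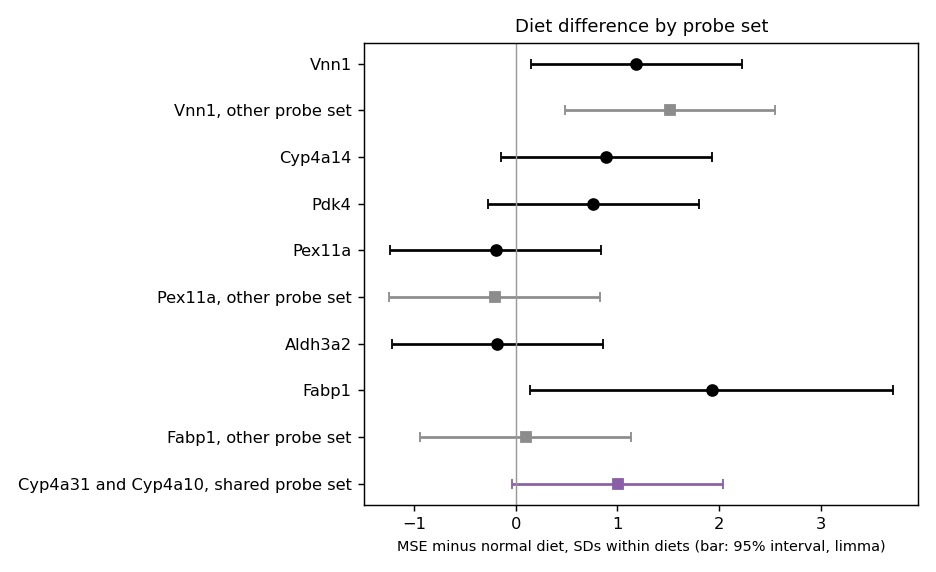
Difference between diets (MSE minus normal, in SDs within diets) for every probe set of the members, with 95% intervals from limma as bars. Black circles stand for the gene, grey squares are other probe sets of the gene, and the purple square is the probe set naming both Cyp4a31 and Cyp4a10. Intervals of both Vnn1 probe sets and of 1 of the 2 Fabp1 probe sets lie above 0.

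The targets varied to very different degrees between mice. Vnn1 had an SD of 4652 millionths over the 16 mice, and only 65 genes (0.357% of all) had a larger one. Cyp4a14 had 3838 (0.418% of genes larger), Pdk4 856 (1.19%) and Pex11a 128 (4.23%), so these 4 were among the more variable genes of the series. Aldh3a2 had 16.6 (19.3% larger), and Fabp1, at 0.730, was among the least variable (98.8% larger). How the probe sets were summarized, which can set their spread, was not stated in the labels.

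The 3 targets with the largest spread are those given a low false discovery rate in the authors' deposited table. In the authors' deposited table Vnn1 (both probe sets) and Cyp4a14 have a rate of 0 for higher expression with MSE, and Pdk4 has 0.000209. A rate under 0.05 for higher expression is given to 1.98% of probe sets there, and for lower expression to 2.74%. Fabp1, at 1.19, is not among them in the authors' deposited table, nor is Aldh3a2, at 1.29, and Pex11a stands at 0.0504 for lower expression.

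**Figure D3:**
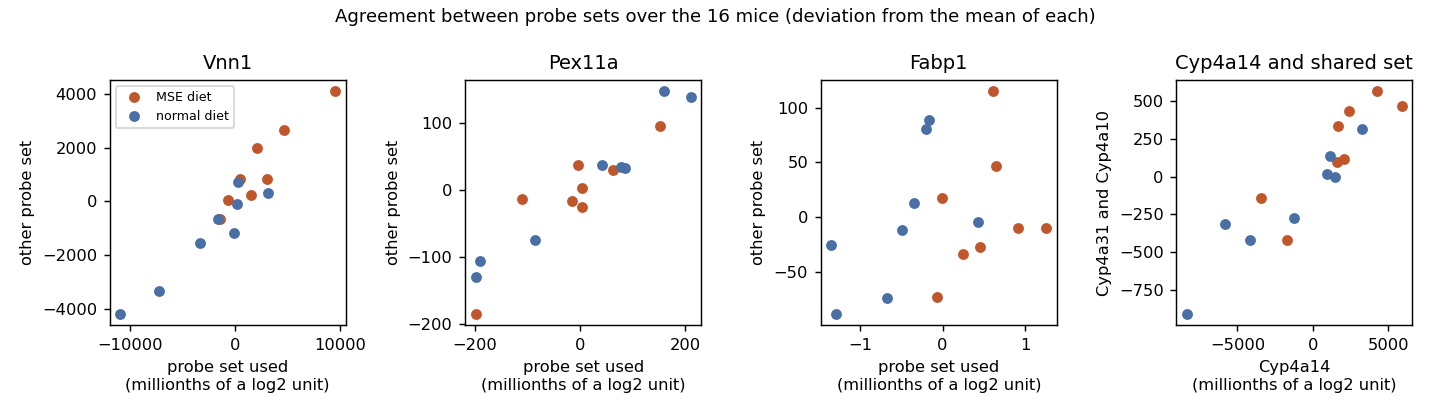
Deviation of each mouse (points, MSE and normal diet in different colours) on 1 probe set against a second, both in millionths of a log2 unit. The panels show the paired probe sets of Vnn1, Pex11a and Fabp1, and Cyp4a14 against the probe set shared by Cyp4a31 and Cyp4a10. The points follow a line except for Fabp1, where r was 0.459 within diets.

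Correlations between the 6 targets from mouse to mouse were weak. After removal of the diet means, Pearson's r over the 16 mice lay between -0.264 and 0.529 in the 15 pairs of members, and 0 pairs had a permutation p under 0.05 after adjustment over the 15 (1 pair before it). The highest was between Fabp1 and Pdk4 (r = 0.529, permutation p = 0.0182, adjusted p 0.273; rho = 0.482, permutation p = 0.0506, adjusted p 0.758). That pair had r = 0.563 without the 2 farthest mice. After centring on array medians it had r = -0.394, where the common shift of each array exceeds the spread of Fabp1. No mouse was high or low in all 6. MSE replicate 1 was among the 4 highest of the 16 mice for Vnn1, Fabp1 and Pdk4, and among the 4 lowest for Pex11a and Aldh3a2. Normal-diet replicate 5 was among the 4 lowest for Vnn1, Pex11a, Fabp1, Cyp4a14 and Pdk4, and replicate 4 for Pex11a, Fabp1, Aldh3a2 and Cyp4a14.

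For each target the 3 genes that followed it most closely over the 16 mice, again without the diet means, were taken by Pearson's r as a description. They were picked as the highest among 18194 genes, so their r is high by the choice itself. Pex11a was followed by the lipid droplet proteins Plin5 (r = 0.927, rho = 0.882) and Plin4 (r = 0.899, rho = 0.879), and by the flippase gene Atp10d (r = 0.869, rho = 0.794). Centring on array medians left Plin5 at 0.917 and Plin4 at 0.914, while quantile normalization left 0.428 and 0.0128. Cyp4a14 was followed by its neighbour in the gene family Cyp4a31 (r = 0.876, rho = 0.827) and by Acot2, a mitochondrial acyl-CoA thioesterase and itself a PPAR alpha target (r = 0.875, rho = 0.806). These had r = 0.883 and 0.896 after centring and 0.551 and 0.504 after quantile normalization. The third was Spanxn4 (r = 0.838, rho = 0.838), at 0.132 after centring.

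Vnn1 was followed by Cdr2 (r = 0.838, rho = 0.703), the vitamin C transporter Slc23a2 (r = 0.837, rho = 0.785) and the amine oxidase gene Aoc3 (r = 0.819, rho = 0.682), and after centring these were at -0.0310, 0.457 and -0.143. Pdk4 was followed by Abhd17b (r = 0.836, rho = 0.706), Mak16 (r = 0.823, rho = 0.641) and Baz2b (r = 0.819, rho = 0.771). After centring these had r = 0.817, -0.0331 and 0.639, and after quantile normalization -0.313, 0.227 and -0.4495. Without the 2 farthest mice they had r = 0.6125, 0.483 and 0.618. Aldh3a2 was followed by the cap-binding factor Eif4e (r = 0.864, rho = 0.662), Metap1 (r = 0.837, rho = 0.694) and Mcmbp (r = 0.831, rho = 0.753). After centring these had r = 0.575, 0.588 and 0.917, and after quantile normalization 0.503, 0.1515 and 0.270. Fabp1 was followed by Spink1 (r = 0.862, rho = 0.927), Ppp2ca (r = 0.858, rho = 0.832) and the keratin-associated gene Krtap4-2 (r = 0.810, rho = 0.824). After centring, Spink1 was at r = 0.9999, where the common shift of each array exceeds the spread of both genes.

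Relatives of the members were set beside them, as genes of the same families that are not among the members. Of 21 measured relatives, 10 were higher and 11 lower with MSE, with a median of -0.0138 SDs. The scaling moves such counts for all genes: 48.3% of genes were higher with MSE as deposited, 45.9% of those with spread left after quantile normalization, and 92.6% after centring on array medians. The median over all genes was 0.416 SDs after centring. Of the relatives, 10 of the 20 with spread left were higher after quantile normalization (Aldh3a1 was at 0 within 1e-06 SDs), and 18 of the 21 after centring, a share below that of all genes. At an unadjusted p under 0.05 there was 1, Fabp2, the intestinal fatty acid-binding protein, which was 1.07 SDs higher as deposited and -0.0895 SDs after quantile normalization. Of all genes 2.59% were higher at such a p as deposited. The nearest relative of Vnn1, the pantetheinase gene Vnn3, was at 0.673 SDs (limma adjusted p 0.875), and at 1.41 SDs after quantile normalization, where Vnn1 was at 1.18. The other kinases of pyruvate dehydrogenase, Pdk1, Pdk2 and Pdk3, were at 0.192, -0.205 and -0.165 SDs beside the 0.765 of Pdk4, and Pex11g was at -0.341 SDs, though centring turned Pdk2, Pdk3 and Pex11g to 0.245, 0.405 and 0.160. After quantile normalization Pdk1 was at 0.970 SDs, above the 0.823 of Pdk4, with Pdk2 at -0.890 and Pdk3 at -0.724. Among Cyp4a genes, Cyp4a31 was at 0.360 SDs and Cyp4a12a, whose expression in mouse depends on androgen, at -0.849 SDs as deposited and 0.170 after centring (limma adjusted p 0.961 and 0.810 as deposited). After quantile normalization Cyp4a31 was at 1.03 SDs, above the 0.825 of Cyp4a14.

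Among the receptor and its partners 0 genes passed limma's test as deposited. Ppara itself was at 0.112 SDs (limma adjusted p 0.993) and at 0.678 after quantile normalization, its partner Rxra at -0.159 SDs as deposited and 0.187 after centring, and the coactivator Ppargc1a at -0.525 SDs. Of 11 measured genes of this list 4 were higher and 7 lower, with 0 at an unadjusted limma p under 0.05 and a median of -0.0219 SDs. The genes with the smallest p were the coactivator Ncoa2 (-0.722 SDs as deposited, 0.0579 after quantile normalization, adjusted p 0.853) and Ppargc1a (adjusted p 0.928). After quantile normalization 8 of the 11 were higher, beside 45.9% of all genes, and 1 had an unadjusted limma p under 0.05, the coactivator subunit gene Med1 (1.84 SDs, against 0.270 as deposited; named after its value was seen). Among all 18194 genes 780 were higher at such a p in that setting. After centring 8 were higher, a share below the 92.6% of all genes. The median of all genes was then 0.416 SDs, above that of Rxra.

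Most other PPAR alpha targets had higher means with MSE as deposited, and 0 passed limma's test after adjustment over all genes. Of 22 measured genes of fatty acid oxidation and ketogenesis, 20 were higher, 13 of them at an unadjusted p under 0.05, with a median of 1.12 SDs. Of all genes 48.3% were higher, and 2.59% were higher at such a p. The 13 ranged from 1.06 SDs for Ech1 to 2.15 for Hadhb. They were the peroxisomal genes Ehhadh, Acaa1a, Acaa1b and Ech1, the carnitine shuttle genes Cpt1a and Cpt2, the mitochondrial genes Eci1, Decr1, Acadl, Hadha, Hadhb and Etfdh, and the ketone body gene Bdh1. After quantile normalization 7 of the 22 had no spread left, among them Acaa1b, Ech1 and Bdh1. Of the other 15, 12 were higher and 2 had an unadjusted p under 0.05, with Slc25a20 at 0 within 1e-06 SDs. Ehhadh and Cpt1a stood at the same value, -0.303 SDs. Decr1, Acadl, Hadhb and Acaa2 all stood at 0.5 SDs, as happens when 1 mouse differs and all others are tied. Their sign in that setting can therefore rest on 1 mouse. In that setting 45.9% of all genes with spread left were higher, and 780 of 18194 were higher at such a p. After centring 22 of 22 were higher, as 92.6% of all genes were, so that count is no result about the list. There 6 had such a p, beside 157 higher among all 18194 genes.

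Of 26 targets outside oxidation, 22 were higher and 9 had an unadjusted limma p under 0.05, with a median of 0.574 SDs. Those counts stand beside 48.3% of all genes higher and 2.59% higher at such a p. The 9 were Retsat, which saturates retinol (1.92 SDs), the lipase inhibitor gene G0s2 (1.92), the monoglyceride lipase gene Mgll (1.87), Acot2 (1.28), the hormone gene Fgf21 (1.24), Acot8 (1.16), Txnip (1.15), the droplet formation gene Fitm2 (1.07) and the droplet coat gene Plin2 (1.04). Quantile normalization left 17 of the 23 with spread left higher and 6 at such a p, gave Retsat no value and turned Mgll to -0.197 SDs. Among all genes with spread left 45.9% were higher in that setting, and 780 of 18194 genes were higher at such a p. Centring left 24 higher, the share that all genes show, and 8 at such a p, beside 157 higher among all 18194 genes. G0s2 stayed at 2.01 SDs after quantile normalization and 1.92 after centring.

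**Figure D4:**
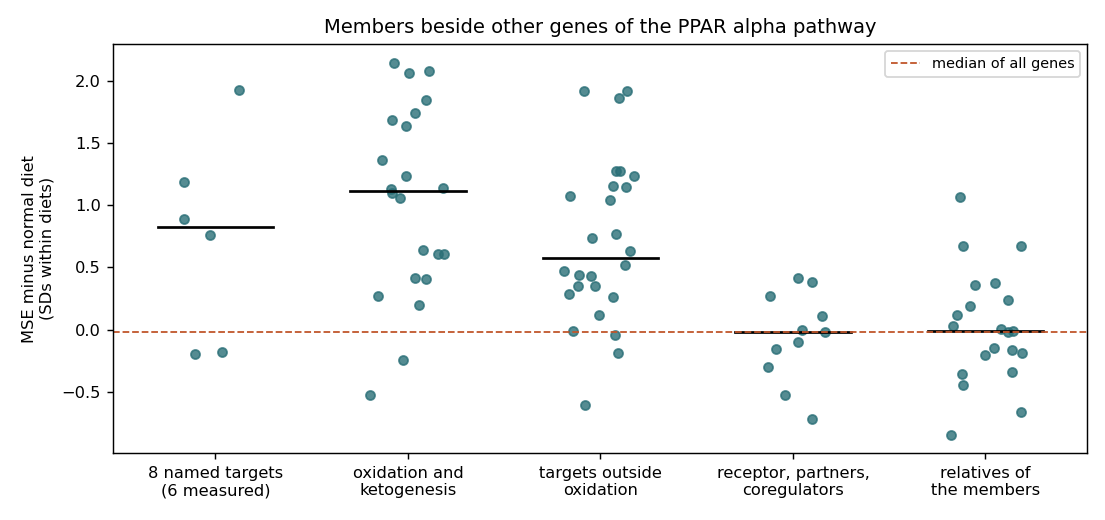
Difference between diets (MSE minus normal, SDs within diets, values as deposited) for each measured gene (points) of the members and of 4 lists of related genes, with the median of each list as a black line. The dashed line is the median of all genes, at -0.0227 SDs. The oxidation list has its median at 1.12 SDs and the members at 0.829, while the receptor list and the relatives lie near the median of all genes.

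Vnn1, Cyp4a14 and Pdk4 stayed higher with MSE under every setting that gave them a value. Pdk4, at a mean of 6.25 log2 units, lay near the array medians and had no value without the lower-level genes. Centring, quantile normalization, array weights, the mean of probe sets and same-numbered mice as blocks were set side by side. Across these Vnn1 lay between 1.16 and 1.30 SDs, Cyp4a14 between 0.825 and 1.25, and Pdk4 between 0.608 and 0.823. With 1 mouse left out at a time, Vnn1 ran from 1.04 to 1.45 SDs, Cyp4a14 from 0.713 to 1.15 and Pdk4 from 0.563 to 1.01, with a lowest adjusted limma p of 0.592. Fabp1 ran from 1.80 to 2.45 SDs when mice were left out but was at 0.116 SDs with the mean of its probe sets.

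**Figure D5:**
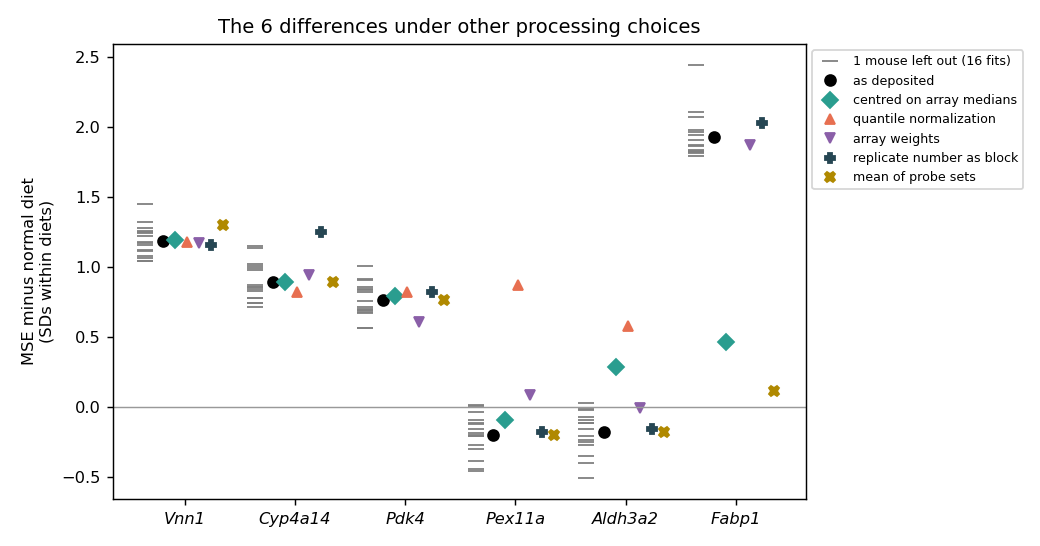
Difference between diets (vertical axis, MSE minus normal, SDs within diets) for the 6 measured targets under other processing choices, with grey dashes for the 16 fits that leave out 1 mouse. Vnn1, Cyp4a14 and Pdk4 stay above 0 under every choice drawn, Pex11a and Aldh3a2 cross 0, and Fabp1 falls to 0.462 after centring and has no value after quantile normalization.

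Markers of other cell types were examined since a liver piece holds other cells, and Pdk4 is also made in fat and muscle. Of 3 measured adipocyte markers 2 were higher with MSE as deposited and 3 after either scaling. Adipoq was at 1.24 SDs (limma adjusted p 0.700), Retn at 0.581 and Lep at -0.155 as deposited. Their mean level, as the mean of each gene's deviation in its own SDs, ran from -0.470 to 1.07 in MSE mice and from -0.872 to 0.498 in normal-diet mice. Of 5 skeletal muscle markers 2 were higher as deposited, 4 after quantile normalization and 5 after centring, beside 92.6% of all genes. Myh4 was at 1.33 SDs (limma adjusted p 0.685) and Tnnt3 at 0.521, while Ckm was at -0.840, Acta1 at -0.205 and Mylpf at -0.0548. Myh4 was at 0.520 after centring and at 0 within 1e-06 SDs after quantile normalization. Their mean level ran from -0.679 to 0.811 in MSE mice and from -0.523 to 0.496 in normal-diet mice. These adipocyte and muscle markers lay between 5.55 and 6.47 log2 units, around the array medians. Of 10 macrophage markers 10 were lower with MSE as deposited, 0 at an unadjusted limma p under 0.05. Of all 18194 genes 9401 were lower. After quantile normalization 7 of the 10 macrophage markers were higher and Marco was at 0 within 1e-06 SDs. The other 2 were lower, Adgre1 (-1.58 SDs) at an unadjusted p under 0.05, beside 686 of all 18194 genes lower at such a p. After centring 6 of the 10 were lower and 4 higher, beside 92.6% of all genes higher. Of 7 markers of T, NK and B cells 5 were higher as deposited, Cd79a (1.43 SDs) and Nkg7 (1.24) at such a p, and neither was above 0 by over 1e-06 SDs after quantile normalization. Of 5 endothelial markers 3 were higher, with Kdr at 1.80 SDs and Stab2 at -1.12, both at such a p and both turned in sign by quantile normalization (-0.347 and 0.842). Stellate cell markers were higher in 5 of 5 as deposited and 3 of 5 after quantile normalization, 0 at such a p, and of 3 exocrine pancreas markers 2 were higher, Cela1 (1.29 SDs) at such a p. As deposited 48.3% of all genes were higher, with 2.59% higher and 4.07% lower at such a p. After centring the higher markers were 7 of 7 for T, NK and B cells and 4 of 5 for endothelium. They were 5 of 5 for stellate cells and 3 of 3 for pancreas, beside 92.6% of all genes. The part of other cell types in the values of the targets was not tested.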

How the data were processed

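Liver RNA of 16 mice was measured on 3' oligonucleotide arrays, 1 mouse an array. The authors deposited log2-like values for 45101 probe sets. The base is inferred from their range, and R 3.2.2 is named per the submitters' processing notes, but how probe sets were summarized and normalized was not stated. The false discovery rate columns the authors deposited are treated as a score, since they reach 1.35. The series' value table was analysed. Its values, sorted within each diet, differed from those of the other deposited table by at most 0. Names came from the platform annotation: 34958 probe sets named 1 gene, 932 named several and 9211 were unlisted or had no symbol.

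Diets were compared with limma 3.58.1 (lmFit, eBayes, R 4.3.3) over 18194 genes, two-sided, with Benjamini-Hochberg adjustment and a threshold of 0.05, after a check on simulated data. Single genes also had an exact permutation test, and correlations used 100000 permutations of mice within diets (Python 3.11.15, NumPy 2.4.6, SciPy 1.17.1). The number of mice limits the precision. Members and lists were chosen with earlier results of these data known, and no p was adjusted over a list alone. All members were named, with 3 companions each by correlation, and list genes with an unadjusted p under 0.05 or, where under 2, the smallest p. Alternatives were other scalings, filters, variance models, array weights, a replicate block, probe set choices and leaving out each mouse.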

Additional observations from a re-analysis of the deposited data

Results flagged for a closer look

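In the second probe set of Pex11a, MSE replicate 3 stood below the other 7 MSE mice. Its gap to the next mouse was 0.572 of the group's whole range, above the critical value of Dixon's test for 8 samples. The same mouse was also the lowest of its group on the probe set that stands for the gene, with a smaller gap. In all, 1 of 18 groups of 8 values was beyond the critical value, and chance gives about 1 in 20.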

How the results depend on the processing

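No setting tried called any of the 6 targets at an adjusted p under 0.05. Over all genes, 0 were called as deposited, against 3 after quantile normalization, 1 with the replicate block, 1 when the lower-level genes were dropped, and 0 to 2 when 1 mouse was left out (1 without MSE replicate 7, 2 without normal-diet replicate 2). Genes at an unadjusted p under 0.05 numbered 1212 as deposited, 230 after centring on array medians, 795 without the lower-level genes and 2847 over all probe sets, and 1020 to 1394 without 1 mouse. The split of these genes was 471 higher and 741 lower as deposited, 157 and 73 after centring, and 780 and 686 after quantile normalization. Of the 6 targets, 2 had such a p as deposited, 1 after quantile normalization, centring, dropping the lower-level genes, an intensity trend with robust estimation or the mean of probe sets, and 0 to 2 without 1 mouse (0 without MSE replicate 1). Vnn1 kept such a p in 13 of the 16 fits that leave out 1 mouse, all but those without MSE replicate 1 or normal-diet replicates 6 or 7, and Fabp1 in 9 of 16. The sign turned for Pex11a after quantile normalization (0.869 SDs) and with array weights (0.0829 SDs), and for Aldh3a2 after quantile normalization (0.581 SDs) and centring (0.288 SDs). Centring put the median of all genes at 0.416 SDs. When 1 mouse was left out, Pex11a ran from -0.460 to 0.0173 SDs, positive without MSE replicate 3 (0.00309) or normal-diet replicate 2, and Aldh3a2 from -0.510 to 0.0266 SDs, positive without normal-diet replicate 3. The cause of these changes was not tested. Fabp1 had no value after quantile normalization, and Pdk4 none without the lower-level genes.

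Among the 15 pairs of targets, centring gave 1 correlation with an adjusted permutation p under 0.05 (Fabp1 and Aldh3a2, r = 0.871), a pair at r = -0.0377 as deposited, and turned Fabp1 and Pdk4 to r = -0.394. Centring takes the same median from every gene of an array, and the medians ran from 6.038702 to 6.038841 log2 units. That range exceeds the SDs over 16 mice of Fabp1 (0.730 millionths) and Aldh3a2 (16.6). Correlations with Fabp1 after centring are therefore no result about the genes. The labels number the mice 1 to 8 in both diets. Same-numbered mice had correlations of their deviations from -0.0262 to 0.218, above 0.1 in 5 of 8. Of the 8 MSE mice, 5 correlated best with the normal-diet mouse of their own number, a hint from the data that numbers may mark pairs, which the labels do not state. In the other deposited table the mice carry other numbers, which are not the same in both diets. A best match drawn at random would fall on the own number for 1 of 8 MSE mice on average. Whether the mice are paired is not settled, and the main test leaves pairs out. The block was kept as an alternative since 3 of the correlations were not above 0.1, a limit without a basis in the labels. With the replicate block 1614 genes had an unadjusted p under 0.05, and so did 2 targets, Vnn1 (1.16 SDs, limma adjusted p 0.534) and Cyp4a14 (1.25 SDs, adjusted p 0.514). Fabp1, at 2.03 SDs (unadjusted limma p 0.0856, adjusted p 0.638), no longer did. Which targets had an unadjusted p under 0.05 thus depended on whether pairs were assumed.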

Other observations

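The probe set annotated to both Cyp4a31 and Cyp4a10 was left out of the members, and its values belong to neither gene alone. It was 1.005 SDs higher with MSE (95% interval -0.0316 to 2.04), in 49 of 64 pairs, with an unadjusted limma p of 0.0565, an adjusted p of 0.809 over all probe sets and an exact permutation p of 0.0646. In the authors' deposited table it has a rate of 4e-05 for higher expression with MSE. Within diets it followed Cyp4a14 over the 16 mice (r = 0.907, rho = 0.921, permutation p = 2e-05 and 1e-05, adjusted 4e-05 for both; r = 0.859 without the 2 farthest mice). It also followed the brighter probe set of Cyp4a31 (r = 0.937, rho = 0.909, permutation p = 1e-05 and 2e-05, adjusted 4e-05 for both; r = 0.904 without the 2 farthest mice). With Cyp4a12a the correlation was weak (r = 0.184, permutation p = 0.499, adjusted p 0.499; rho = 0.259, permutation p = 0.338, adjusted p 0.338; r = 0.6005 without the 2 farthest mice), and with the second probe set of Cyp4a31 it was r = 0.545 (permutation p = 0.0347, adjusted p 0.0462; rho = 0.447, permutation p = 0.0905, adjusted p 0.121; r = 0.522 without the 2 farthest mice). The adjustment was over 4 probe sets. These Cyp4a genes are close copies of each other, so their probe sets may share signal, which was not tested.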
